A study of Mus musculus with 8 samples.

Results

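Cartilage matrix and chondrocyte genes were examined in arthritic and control mouse paws as a set of 9 genes: Acan, Hapln1, Matn1, Matn3, Comp, Chad, Prg4, Sox9 and Cytl1. They were chosen by name as cartilage genes other than collagens, together with lubricin (Prg4), and they are 9 of the 19938 genes that the array names by probe sets with exactly 1 gene symbol. Each of the 9 has 1 such probe set. Total RNA of paws excised from DBA/1J males aged 8 to 10 weeks, mice that readily develop collagen-induced arthritis (CIA), was hybridised to Affymetrix Mouse Gene 1.0 ST arrays, with 2 arrays in each of 4 groups. The CIA group was immunised at the tail base with 150 µg of type II collagen from chicken in Freund's complete adjuvant and a booster in incomplete adjuvant 3 weeks later. The CIA+MLIF group had the same immunisation and, in addition, MLIF (monocyte locomotion inhibitory factor, a pentapeptide of Entamoeba histolytica) each week into the nose, begun 1 week before the first collagen injection. The adjuvant group received the adjuvants without collagen, and the adjuvant+MLIF group the adjuvants with weekly nasal MLIF for 9 weeks, so that all 4 groups carried the adjuvants. Per the sample labels the paws were taken 4 weeks after the booster, whereas the series text places collection before it. Each group held 8 mice, and the titles present its 2 arrays as biological rather than technical repeats. They do not say how many mice an array stands for. The p-values therefore measure the spread between these arrays, which may be in part technical.

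Hyaline cartilage is a tissue of few cells in a large matrix, in which aggrecan bound to hyaluronan holds water inside a network of type II collagen fibrils. Smaller adaptor proteins (matrilins, cartilage oligomeric matrix protein and chondroadherin) link the fibrils, proteoglycans and cells, lubricin coats the joint surface, and the transcription factor SOX9 drives the chondrocyte programme. In arthritis, proteases of the ADAMTS and matrix metalloproteinase families cut this matrix. A paw also holds skin, muscle, tendon, bone, marrow and fat, so cartilage is a minor part of the RNA, and in such bulk samples fewer cells of a type and less RNA per cell cannot be told apart.

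RefSeq's promoter table for GRCm38.p6 holds an entry for 6 of the 9 genes (Acan, Hapln1, Matn1, Matn3, Chad and Cytl1). The 250 bases before the start are shown for Cytl1, the gene that changed between groups, and for Chad and Hapln1, whose changes lay on opposite sides of 0 in CIA against adjuvant without passing. Cytl1 lies at chr5:37735269-37735518, Chad at chr11:94564797-94565046 and Hapln1 at chr13:89540386-89540635, all 3 on the plus strand. Capitals mark matches, on either strand, to the TATA box core TATAAA, to its common variant TTTAAA, or to the core ACAAT that SOX proteins bind, letters chosen after these sequences had been read. The core and its variant differ at 1 base, so that no stretch can match both at the same place.
Cytl1: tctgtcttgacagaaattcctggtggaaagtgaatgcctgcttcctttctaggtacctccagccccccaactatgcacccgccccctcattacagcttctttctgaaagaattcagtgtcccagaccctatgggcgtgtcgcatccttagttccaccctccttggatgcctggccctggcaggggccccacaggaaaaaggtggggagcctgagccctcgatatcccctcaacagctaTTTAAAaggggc
Chad: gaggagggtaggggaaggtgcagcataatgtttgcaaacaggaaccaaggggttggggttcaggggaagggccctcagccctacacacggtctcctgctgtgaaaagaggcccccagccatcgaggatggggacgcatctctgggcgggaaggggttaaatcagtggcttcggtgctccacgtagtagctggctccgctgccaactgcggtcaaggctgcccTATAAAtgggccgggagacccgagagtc
Hapln1: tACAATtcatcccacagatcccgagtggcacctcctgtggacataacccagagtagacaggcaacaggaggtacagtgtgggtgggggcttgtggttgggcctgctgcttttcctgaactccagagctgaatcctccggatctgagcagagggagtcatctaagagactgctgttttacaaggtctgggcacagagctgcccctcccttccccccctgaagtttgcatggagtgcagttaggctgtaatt
In Cytl1 the only match was TTTAAA, 12 bases before the start. Chad held TATAAA 28 bases before the start, and Hapln1 held ACAAT 249 bases before it. In windows of the same length, ACAAT was found in 27.7% of the 32851 RefSeq promoters, TATAAA in 12.4% and TTTAAA in 12.1%, so such matches are common. The windows of Acan, Matn1 and Matn3 held none of these motifs. Their GC content was 74.4%, 62% and 65.2%, against 54.8% in Cytl1, 60.4% in Chad and 54.4% in Hapln1.

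Signals are given on the log2 scale as deposited, so that a difference of 1 is a doubling. The scale's zero has no meaning, and levels of different genes are not compared. Replicate arrays correlated at r = 0.989 (CIA) to 0.999 (adjuvant+MLIF) across 23410 annotated probe sets, which are not independent. CIA replicate 1 stood apart, with a median signal of 6.97 over these probe sets against 7.29 to 7.35 on the other 7 arrays. With it, the middle of the distribution of changes shifted, to a median over the annotated probe sets of -0.23 in CIA against adjuvant and 0.22 in CIA+MLIF against CIA. Each comparison of 2 groups comes from 1 limma fit to all 8 arrays, with p-values adjusted by Benjamini and Hochberg over the 23410 probe sets. A gene passed at an adjusted p under 0.05. The median standard error of a change was 0.176. The fit takes 1 spread per probe set for all 4 groups, although replicates differed least in adjuvant+MLIF and most in CIA. The SD of their difference was 0.086 and 0.31, so standard errors of comparisons with CIA may be too small.

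The cartilage origin of part of the RNA was visible in every group. Type II collagen (Col2a1) lay between 9.50 and 9.93 on the 8 arrays, and Col2a1, Col9a1 and Col11a2 exceeded the 75th percentile of the entries taken as array controls (7.34 to 7.76) on all of them. Of the 9 genes, 6 (Acan, Comp, Chad, Prg4, Sox9 and Cytl1) were above that percentile on all 8 arrays. Matn3 and Hapln1 lay above the control median (5.88 to 6.44) but not above the 75th percentile on any array. Matn1 lay below the control median on all 8 arrays, so that its differences cannot be told from background. The groups also differed in other tissues. Epidermal markers averaged 6.20 to 6.28 on the adjuvant arrays and 6.29 to 6.32 with adjuvant+MLIF, where 2 and 4 of the 10 markers exceeded the control median on both arrays. They averaged 10.98 to 11.26 in CIA and 10.21 to 10.27 in CIA+MLIF, where all 10 did. Skeletal muscle markers averaged 12.36 to 12.53 in adjuvant, 12.46 to 12.47 in adjuvant+MLIF, 10.92 to 11.17 in CIA and 12.19 to 12.49 in CIA+MLIF. The tissue labelled articular thus held muscle markers in every group and, in the collagen groups, the full list of skin markers.

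Cytl1 fell in CIA and was back near the control level in CIA+MLIF, while the other 8 genes did not pass in any comparison of the values as deposited. Cytl1 encodes cytokine-like protein 1, a small secreted protein found in chondrocytes (probe set 10521537). Its signal was 12.24 and 12.57 on the adjuvant arrays, 12.46 and 12.45 with adjuvant+MLIF, 9.90 and 10.09 in CIA, and 12.00 and 12.27 in CIA+MLIF. Both CIA arrays lay below every array of the other 3 groups, an order not counted over all probe sets. The order of the group means was adjuvant+MLIF (12.45 ± 0.0069, SD, n = 2), adjuvant (12.41 ± 0.23, SD, n = 2), CIA+MLIF (12.13 ± 0.19, SD, n = 2) and CIA (10.00 ± 0.14, SD, n = 2). Among the first 3 of these, no neighbours differed beyond their spread, and of the gaps between neighbours only that to CIA did. Both CIA+MLIF arrays still lay below both adjuvant+MLIF arrays, and these 2 groups did not overlap for 53.6% of all probe sets.

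CIA against adjuvant asked what collagen immunisation changed in the absence of MLIF. Cytl1 was 5.32-fold lower in CIA (log2 change -2.41, SE 0.17, 95% interval -2.80 to -2.02, limma adjusted p = 2.10e-05). Of all annotated probe sets, 0.440% had a lower change. It was the only 1 of the 9 genes to pass (11.1%), whereas 19.2% of all annotated probe sets passed, 14.1% lower and 5.08% higher (3307 and 1190 probe sets, which became 3577 and 3555 after quantile normalization). The set as a whole was thus called no more often than the array at large. The median change of the 9 genes was -0.18, beside -0.23 over all probe sets. Between CIA and adjuvant, the arrays of 5 of the 9 genes did not overlap (Chad, Cytl1 and Prg4 lower, Matn3 and Hapln1 higher in CIA), and the same was true of 57.3% of all probe sets.

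CIA+MLIF against CIA asked what the peptide changed in immunised mice. Cytl1 was 4.40-fold higher in CIA+MLIF than in CIA (log2 change 2.14, SE 0.17, 95% interval 1.75 to 2.52, limma adjusted p = 9.32e-05). Again it was the only 1 of 9 genes to pass, beside 15.4% of all probe sets, of which 11.6% were higher and 3.77% lower (2717 and 883 probe sets, 2912 and 3284 after quantile normalization). Arrays of CIA+MLIF and CIA did not overlap for 4 of the 9 genes (Cytl1, Chad and Prg4 higher, Hapln1 lower), beside 51.7% of all probe sets. The 2 comparisons share the CIA arrays, so the opposite signs are in part tied to each other. The interaction, which sets the collagen effect with MLIF against that without it, was 2.09 for Cytl1 (SE 0.24, limma adjusted p = 0.00127), and 6.86% of all probe sets passed there, 4.98% higher and 1.88% lower. Compared with adjuvant, Cytl1 in CIA+MLIF was at -0.27 (SE 0.17, 95% interval -0.66 to 0.11, limma adjusted p = 1.00). That interval still holds a moderate fall, so a full return to the control level is not shown. Against adjuvant+MLIF the value was -0.32 (95% interval -0.71 to 0.07). Cytl1 kept its 3 calls under every alternative processing run, with changes of -2.57 to -2.25 in CIA against adjuvant and 1.99 to 2.27 in CIA+MLIF against CIA.

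**Figure D1:**
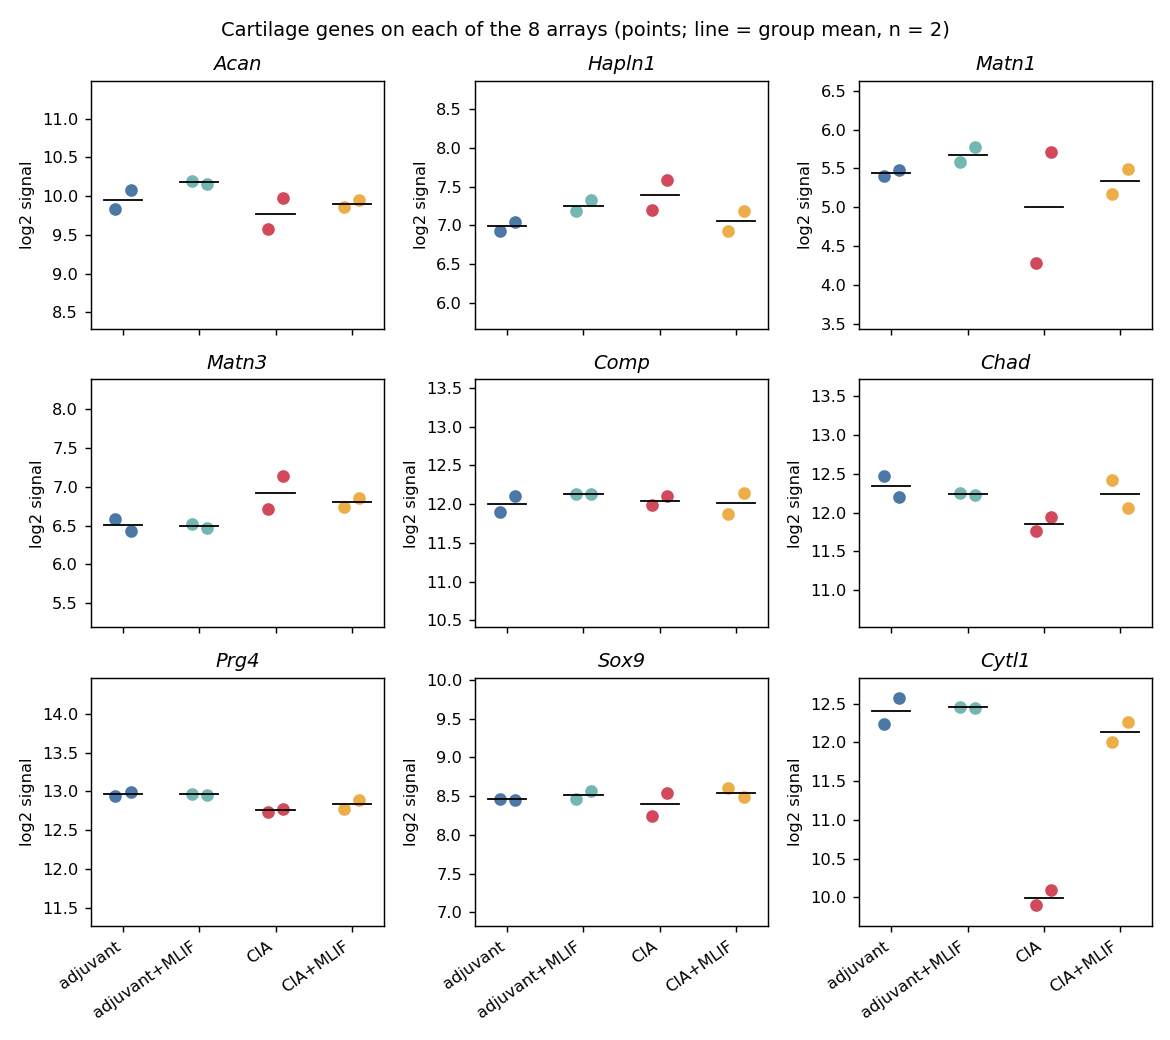
Log2 signal (vertical axes, the same span of values in each panel) of the 9 genes on each of the 8 arrays, with points for arrays and lines for group means (n = 2). Both CIA arrays of Cytl1 lie at 9.90 and 10.09, below the 6 other arrays at 12.00 to 12.57, whereas the points of the other genes lie within 1.49 of each other or less.

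Neither the aggregate-forming proteoglycan nor its link protein passed in the values as deposited. Acan (probe set 10554249) encodes aggrecan, the main proteoglycan of cartilage. Its signal was 9.83 and 10.07 in adjuvant, 10.20 and 10.16 in adjuvant+MLIF, 9.57 and 9.98 in CIA, and 9.86 and 9.95 in CIA+MLIF. The CIA arrays overlapped those of adjuvant and of CIA+MLIF, and the change in CIA against adjuvant was -0.18 (95% interval -0.57 to 0.21, limma adjusted p = 0.470). Hapln1 (probe set 10406519) encodes the link protein that fastens aggrecan to hyaluronan. Its signal was 6.93 and 7.05 in adjuvant, 7.19 and 7.33 in adjuvant+MLIF, 7.20 and 7.59 in CIA, and 6.93 and 7.19 in CIA+MLIF. Both CIA arrays lay above both adjuvant arrays and, by a narrow margin (7.196 against 7.188), above both CIA+MLIF arrays. The arrays of these pairs of groups did not overlap for 57.3% and 51.7% of all probe sets. No Hapln1 array exceeded the 75th percentile of the control entries. The change of 0.40 in CIA against adjuvant (95% interval 0.0035 to 0.80) did not pass (limma adjusted p = 0.136). In CIA+MLIF against CIA the change was -0.33 (95% interval -0.73 to 0.07, limma adjusted p = 0.212).

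The matrilins are adaptors that form filaments between collagen fibrils and proteoglycans. Matn3 (probe set 10394488) had a signal of 6.59 and 6.44 in adjuvant, 6.52 and 6.47 in adjuvant+MLIF, 6.72 and 7.14 in CIA, and 6.74 and 6.86 in CIA+MLIF. All 4 arrays of the collagen groups lay above all 4 arrays without collagen, an order not counted over all probe sets. No Matn3 array exceeded the 75th percentile of the control entries. The change in CIA against adjuvant was 0.41 (95% interval 0.03 to 0.80, limma adjusted p = 0.117), and that in CIA+MLIF against adjuvant+MLIF was 0.31 (95% interval -0.08 to 0.69). Matn1 (probe set 10508676) read 5.40 and 5.48 in adjuvant, 5.59 and 5.77 in adjuvant+MLIF, 4.28 and 5.71 in CIA, and 5.17 and 5.50 in CIA+MLIF. The low value is that of CIA replicate 1, the array with the lower median, and with all of them below the control median no change of Matn1 can be read.

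Comp and Chad encode proteins that bind collagen fibrils and cells. Comp (probe set 10572378) stayed within 0.264 over the 8 arrays, at 11.89 and 12.11 in adjuvant, 12.13 and 12.14 in adjuvant+MLIF, 11.98 and 12.10 in CIA, and 11.88 and 12.14 in CIA+MLIF. Its change in CIA against adjuvant was 0.04 (95% interval -0.31 to 0.40) and its CIA arrays lay within the range of the adjuvant arrays. Chad (probe set 10380398), chondroadherin, had a signal of 12.48 and 12.20 in adjuvant, 12.25 and 12.23 in adjuvant+MLIF, 11.76 and 11.94 in CIA, and 12.42 and 12.06 in CIA+MLIF. As for Cytl1, both CIA arrays were below the 6 others, an order not counted over all probe sets, but the distance was smaller. The change was -0.49 in CIA against adjuvant (SE 0.17, 95% interval -0.88 to -0.10, limma adjusted p = 0.0784) and 0.39 in CIA+MLIF against CIA (SE 0.17, limma adjusted p = 0.152), and neither passed.

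Prg4 (probe set 10358476) encodes lubricin, made by surface chondrocytes and by the lining cells of the synovium. Its signal was 12.94 and 13.00 in adjuvant, 12.97 and 12.95 in adjuvant+MLIF, 12.74 and 12.78 in CIA, and 12.78 and 12.90 in CIA+MLIF. The 8 values span 0.262. The CIA arrays were lowest by a very small margin (12.778 against 12.780 in CIA+MLIF), an order not counted over all probe sets. The change of -0.21 in CIA against adjuvant (95% interval -0.52 to 0.10, limma adjusted p = 0.285) did not pass. Sox9 (probe set 10382328), the transcription factor, read 8.47 and 8.45 in adjuvant, 8.47 and 8.56 in adjuvant+MLIF, 8.25 and 8.54 in CIA, and 8.61 and 8.48 in CIA+MLIF. Its CIA arrays straddled those of adjuvant, with a change of -0.06 (95% interval -0.41 to 0.28, limma adjusted p = 0.781).

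**Figure D2:**
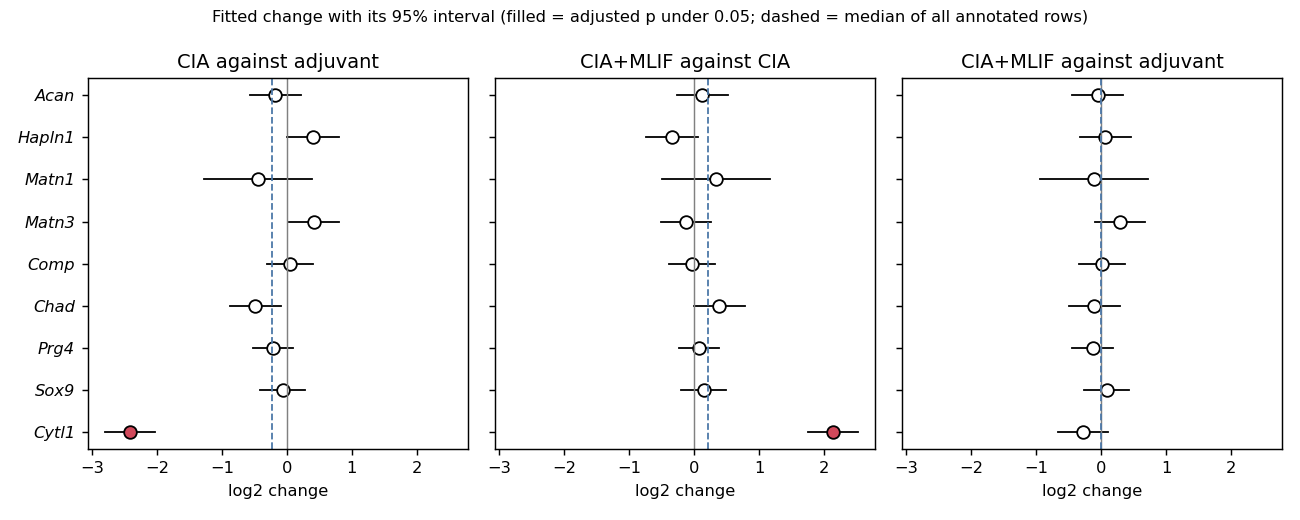
Fitted log2 change (horizontal axes) of each gene in 3 comparisons, with its 95% interval as a line; filled points have an adjusted p under 0.05 and the dashed lines mark the median of all annotated probe sets (-0.23, 0.22 and -0.01). Cytl1 is at -2.41 in CIA against adjuvant, at 2.14 in CIA+MLIF against CIA and at -0.27 in CIA+MLIF against adjuvant, where no gene is filled.

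MLIF without collagen left the 9 genes close to the adjuvant values. In adjuvant+MLIF against adjuvant the changes ran from -0.10 (Chad) to 0.27 (Hapln1), with 0 genes passing in the limma fit and 0 at an unadjusted p under 0.05. Over all probe sets 0% passed, with 673 at an unadjusted p under 0.05. Arrays of the 2 groups did not overlap for 5 of the 9 genes, all higher with MLIF, beside 54.6% of all probe sets in either direction. In CIA+MLIF against adjuvant+MLIF, changes ran from -0.34 (Matn1) to 0.31 (Matn3), with 0 genes passing and 0 at an unadjusted p under 0.05, beside 0.880% of all probe sets passing (0.863% higher and 0.0171% lower). Arrays did not overlap for 6 of the 9 genes there, beside 53.6% of all probe sets. Relative to adjuvant, the changes in CIA+MLIF ran from -0.27 (Cytl1) to 0.29 (Matn3), with 0 genes passing and 0 at an unadjusted p under 0.05, beside 0.842% of all probe sets passing, all higher. Arrays did not overlap for 3 of the 9, beside 36.0% of all probe sets. None of the alternative settings produced a call among the 9 genes in these 3 comparisons.

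Calls among the other 8 genes depended on the scaling, on which CIA array was included and, for Chad, on the filter and the variance model. Relative to the median of all probe sets, the changes of Matn3 and Hapln1 in CIA against adjuvant were 0.65 and 0.63, those of Comp and Chad 0.27 and -0.26, and that of Cytl1 -2.18. After quantile normalization, which gives all arrays 1 distribution, Matn3 (0.59, limma adjusted p = 0.00211) and Hapln1 (0.53, limma adjusted p = 0.00897) passed as higher in CIA. So did 3555 of the 23410 probe sets. They also passed after centring each array on its median (0.55 and 0.54), where 3019 probe sets were called higher. With CIA replicate 1 left out they passed at 0.63 and 0.60, beside a median change of -0.03 over all probe sets. With CIA replicate 2 left out they were at 0.20 each and did not pass. In that fit Acan (-0.38), Chad (-0.58), Matn1 (-1.16) and Cytl1 passed as lower, on the array with the low median alone. Hapln1 was also lower in CIA+MLIF than in CIA after quantile normalization (-0.49), after centring (-0.48) and without CIA replicate 1 (-0.53). Matn3 was lower there after quantile normalization (-0.32, limma adjusted p = 0.0391) but did not pass after centring (-0.28). In this comparison 3284 of the 23410 probe sets passed as lower after quantile normalization and 2692 after centring. Chad passed in CIA against adjuvant with the lowest tercile of probe sets left out (limma adjusted p = 0.0475) and with a trended, robust variance (limma adjusted p = 0.0485), at the same change of -0.49. Without CIA replicate 2, Chad (0.48), Matn1 (1.05) and Sox9 (0.30) passed as higher in CIA+MLIF than in CIA. In CIA against adjuvant, the uncalled change of Sox9 had the opposite sign after quantile normalization (0.05) and centring (0.08), and that of Matn1 after quantile normalization (0.03).

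**Figure D3:**
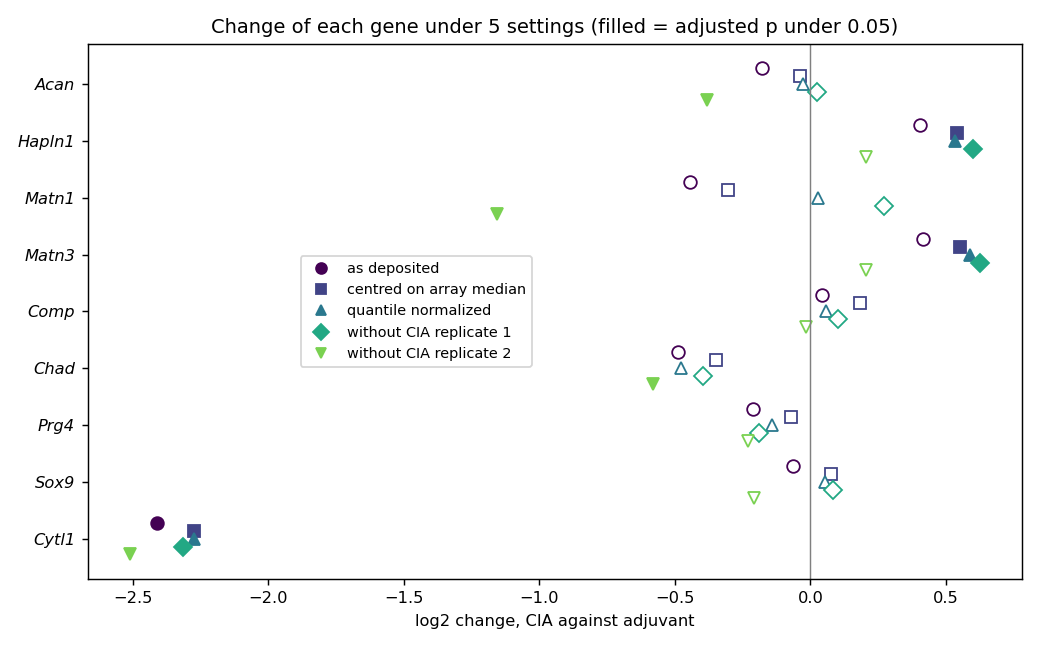
Log2 change in CIA against adjuvant (horizontal axis) of each gene under 5 settings, filled where the adjusted p was under 0.05. Cytl1 is filled in all 5, Hapln1 and Matn3 are filled in 3 (centred, quantile normalized and without CIA replicate 1), and Acan, Matn1 and Chad are filled only without CIA replicate 2.

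Beside the fall of Cytl1, markers of other tissues also differed between the groups. Of all probe sets, 14.1% passed as lower and 5.08% as higher in CIA against adjuvant, with 3.77% and 11.6% in CIA+MLIF against CIA. All 13 skeletal muscle markers were lower in CIA than in adjuvant (median change -1.36) and all 13 were higher in CIA+MLIF than in CIA (median 1.23; 12 of 13 without CIA replicate 1). All 6 adipocyte markers measured were lower in CIA (median -1.22), and 4 of them passed as higher in CIA+MLIF (median 1.10), counts that became 5 and 3 without CIA replicate 1. Of the 10 epidermal markers, 9 were higher in CIA than in adjuvant (median 5.09), and 7 were lower in CIA+MLIF than in CIA (median -0.92; 8 of 10 without CIA replicate 1). Their mean in CIA+MLIF was 10.21 to 10.27, still above that of both adjuvant groups, while Cytl1 was at 12.00 and 12.27. Fibroblast markers averaged 11.49 to 11.62 in adjuvant, 11.69 to 11.70 in adjuvant+MLIF, 12.44 to 12.53 in CIA and 11.42 to 11.64 in CIA+MLIF. The mean of the other 8 cartilage genes was 9.32 and 9.35 in adjuvant, 9.41 and 9.45 in adjuvant+MLIF, 9.06 and 9.47 in CIA, and 9.30 and 9.38 in CIA+MLIF, so the 2 CIA arrays lay on either side of the others. That mean includes Matn1, at 4.28 and 5.71 in CIA, which lay below the control median. The lower CIA value is that of replicate 1, the array with the low median signal (6.97). The part of muscle, fat and skin in the values of Cytl1 was not tested.

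**Figure D4:**
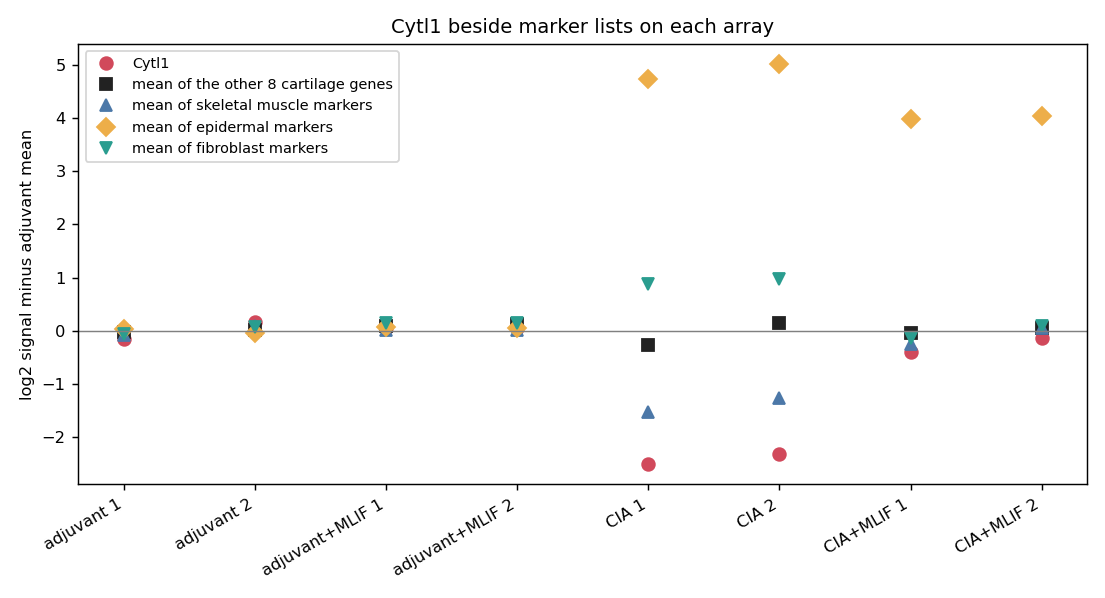
Log2 signal on each array (horizontal axis) minus the adjuvant mean (vertical axis) for Cytl1, the mean of the other 8 cartilage genes and the means of muscle, epidermal and fibroblast markers. Cytl1 and the muscle markers are low on both CIA arrays and near 0 on the CIA+MLIF arrays, where the epidermal markers stay high (10.21 to 10.27, against 6.20 to 6.28 in adjuvant).

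The patterns most like that of each gene, by Pearson's r of log2 signal over the 8 arrays among about 9478 genes above the median signal, are given as a description. Cytl1 was followed most closely by Cyria (r = 0.999), Btbd1 (0.998) and Tnnt1 (0.997), the last a troponin of slow muscle. In all, 734 genes had r over 0.95 with Cytl1, and the value rests on the 2 low CIA arrays, which form a cluster of their own. The nearest for Acan were Tbck (0.995), Rgs14 (0.987) and Flot1 (0.983), and for Hapln1 they were Zfp263 (0.984), Ncbp2 (0.982) and Insc (0.979). For Matn3 they were Dram1 (0.985), Lrrc28 (0.973) and Hmgcs1 (0.973), and for Matn1 Dnajc18 (0.993), Cstf2 (0.991) and Ubp1 (0.988). Comp was nearest to Dop1a (0.993), Ctnnbl1 (0.989) and Psmc2 (0.987), and Chad to Ager (0.975), Tpcn1 (0.968) and Kcna2 (0.968). Prg4 was nearest to Numa1 (0.993), Ralgapa2 (0.988) and H2bc4 (0.986), and Sox9 to Espnl (0.981), Wnt10b (0.977) and Cry1 (0.970). All genes share the same 8 arrays, and high values were common: 151 genes had r over 0.95 with Matn1, although it lay below the control median.

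Other genes of cartilage were taken from 7 lists, of which 86 of 90 genes were measured. In CIA against adjuvant 17 passed as lower and 17 as higher, and in CIA+MLIF against CIA 17 were lower and 15 higher (19.2% and 15.4% of all probe sets passed). By direction, 14.1% of all probe sets passed as lower and 5.08% as higher in the first comparison, with 3.77% and 11.6% in the second. All 34 and all 32 calls among the list genes were kept after quantile normalization and after centring. The counts of lower and higher genes then became 19 and 31 (quantile) or 18 and 31 (centred) in CIA against adjuvant. In CIA+MLIF against CIA they became 29 and 17 or 29 and 18. Over all 23410 probe sets, the lower and higher counts became 3577 and 3555 or 4512 and 3019 in the first comparison. In the second they became 3284 and 2912 or 2692 and 3847. With each array left out in turn, 18 of the 34 and 17 of the 32 calls held in every case. Among the others the adjusted p rose to between 0.0515 and 0.225, and to between 0.0501 and 0.205, when 1 array or another was missing. The genes named here with a change are among those whose call held with any 1 array left out, unless stated. Of the 86 genes, 0 passed in the limma fit of adjuvant+MLIF against adjuvant, with 3 at an unadjusted p under 0.05. The same held for CIA+MLIF set against either adjuvant group, where 0 passed and where 5 (against adjuvant+MLIF) and 0 (against adjuvant) had an unadjusted p under 0.05.

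Cartilage collagens gave 2 higher and 0 lower of 7 in CIA against adjuvant (median change -0.10, beside -0.23 over all probe sets). Col11a1, a chain of the type XI collagen that nucleates fibrils, was at 8.69 and 8.73 in adjuvant, 8.92 and 8.90 in adjuvant+MLIF, 9.62 and 10.02 in CIA and 8.72 on both CIA+MLIF arrays. It was higher in CIA than in adjuvant (log2 change 1.11, SE 0.16, limma adjusted p = 0.00141) and lower in CIA+MLIF than in CIA (-1.10, SE 0.16, limma adjusted p = 0.00208). Col2a1 was at 0.31 in CIA against adjuvant and did not pass (limma adjusted p = 0.141). Among 16 other matrix proteins 7 were lower and 2 higher (median -0.34). Of all probe sets, 14.1% passed as lower and 5.08% as higher in this comparison. Clec3a, a lectin of cartilage, had a signal of 11.57 and 11.77 in adjuvant, 11.91 and 11.89 in adjuvant+MLIF, 9.95 and 10.31 in CIA, and 11.27 and 11.59 in CIA+MLIF. Like Cytl1 it fell in CIA (-1.54, SE 0.18, limma adjusted p = 0.000412) and was higher again in CIA+MLIF than in CIA (1.31, SE 0.18, limma adjusted p = 0.00151). Ucma, a small protein of immature chondrocytes, fell by 1.18 in CIA and was 0.97 higher in CIA+MLIF than in CIA, a call that was lost with array weights (limma adjusted p = 0.0712).

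The chondrocyte transcription factors and signals held 1 lower and 0 higher of 12 (median -0.10), beside 14.1% and 5.08% of all probe sets. Sox6, which works with Sox9 on cartilage genes, was at 8.63 and 8.62 in adjuvant, 8.46 and 8.48 in adjuvant+MLIF, 7.30 and 7.72 in CIA, and 8.33 and 8.48 in CIA+MLIF. It fell in CIA (-1.11, SE 0.17, limma adjusted p = 0.00172). Its rise in CIA+MLIF against CIA (0.90, limma adjusted p = 0.00728) did not hold without CIA+MLIF replicate 2 (0.82, limma adjusted p = 0.0664). Genes of the growth plate moved both ways, 2 lower and 2 higher of 7 in CIA (median -0.25). Col10a1, the collagen of hypertrophic chondrocytes, fell by 1.30, and Mef2c, a transcription factor of hypertrophic chondrocytes and also of muscle, fell by 1.63. Mmp13, the main collagenase for type II collagen, rose by 2.37 from 10.10 and 10.12 in adjuvant to 12.43 and 12.54 in CIA, and Panx3, a channel of maturing chondrocytes and bone cells, rose by 1.37. All 4 of these changes were turned in CIA+MLIF against CIA, at 1.25 (Col10a1), 1.42 (Mef2c), -2.59 (Mmp13) and -1.42 (Panx3). All 13 skeletal muscle markers were also lower in CIA, and the part of muscle in the values of Sox6 and Mef2c was not tested.

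Matrix proteases and their inhibitors were the list with the most calls, 8 higher and 3 lower of 15 in CIA (median 0.68, beside -0.23 over all probe sets). Among all probe sets, 5.08% passed as higher and 14.1% as lower. Mmp9 (2.61, SE 0.14, limma adjusted p = 6.25e-06), Mmp3 (2.08), Mmp14 (1.31) and Mmp2 (1.05) rose. Of the aggrecanases Adamts4 rose (1.02, SE 0.13, limma adjusted p = 0.000839), from 6.45 and 6.41 in adjuvant to 7.46 and 7.43 in CIA. Adamts5 was at 10.11 and 10.14 in adjuvant and at 9.32 and 9.39 in CIA, a change of -0.77 whose call was lost without adjuvant replicate 2 (-0.75, limma adjusted p = 0.0585). Of the inhibitors Timp1 rose (2.10, SE 0.19) and Timp4 fell (-1.38, SE 0.22). Of the 15, 7 were lower and 3 higher in CIA+MLIF than in CIA, beside 3.77% and 11.6% of all probe sets. Mmp9 was at -2.65, Timp1 at -2.24, Mmp3 at -2.03, Adamts4 at -1.08 and Timp4 at 1.75. Several of these genes are also made outside cartilage. Osteoclast markers averaged 7.31 to 7.49 in adjuvant, 7.58 to 7.61 in adjuvant+MLIF, 8.61 to 8.80 in CIA and 7.33 to 7.46 in CIA+MLIF. Neutrophil markers averaged 7.34 to 7.56, 8.24 to 8.25, 9.45 to 9.68 and 7.69 to 7.79 in the same order. The part of these cells, and of muscle, in the protease and inhibitor values was not tested.

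Enzymes of glycosaminoglycan synthesis, which build the chondroitin sulfate chains of aggrecan, were mostly uncalled. In CIA 0 were lower and 2 higher of 20 (median 0.08), beside 14.1% and 5.08% of all probe sets. Csgalnact1, which starts chondroitin chains, rose by 0.92 (SE 0.16, limma adjusted p = 0.00342) and was 0.99 lower on the log2 scale in CIA+MLIF than in CIA. Both calls were lost with array weights (limma adjusted p = 0.0547 and 0.0627). After quantile normalization 7 of the 20 were higher and 1 lower, beside 3555 higher and 3577 lower of the 23410 probe sets. Genes of the synovial lining and of lubrication, the functional company of Prg4, held 4 lower and 1 higher of 9 in CIA (median -0.16). Clic5, a chloride channel protein of lining fibroblasts, was at 10.29 and 10.59 in adjuvant, 10.52 and 10.57 in adjuvant+MLIF, 8.93 and 9.20 in CIA, and 10.25 and 10.53 in CIA+MLIF. It fell in CIA (-1.38, SE 0.18, limma adjusted p = 0.000713) and was higher in CIA+MLIF than in CIA (1.33, SE 0.18, limma adjusted p = 0.00125). The part of muscle, whose 13 markers were all lower in CIA, in the values of Clic5 was not tested. Cd55, a complement regulator on lining cells, fell by 1.34 in CIA. Its difference of 1.04 between CIA+MLIF and CIA was not called without CIA+MLIF replicate 1 (1.20, limma adjusted p = 0.0578) or replicate 2 (0.88, limma adjusted p = 0.115).

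**Figure D5:**
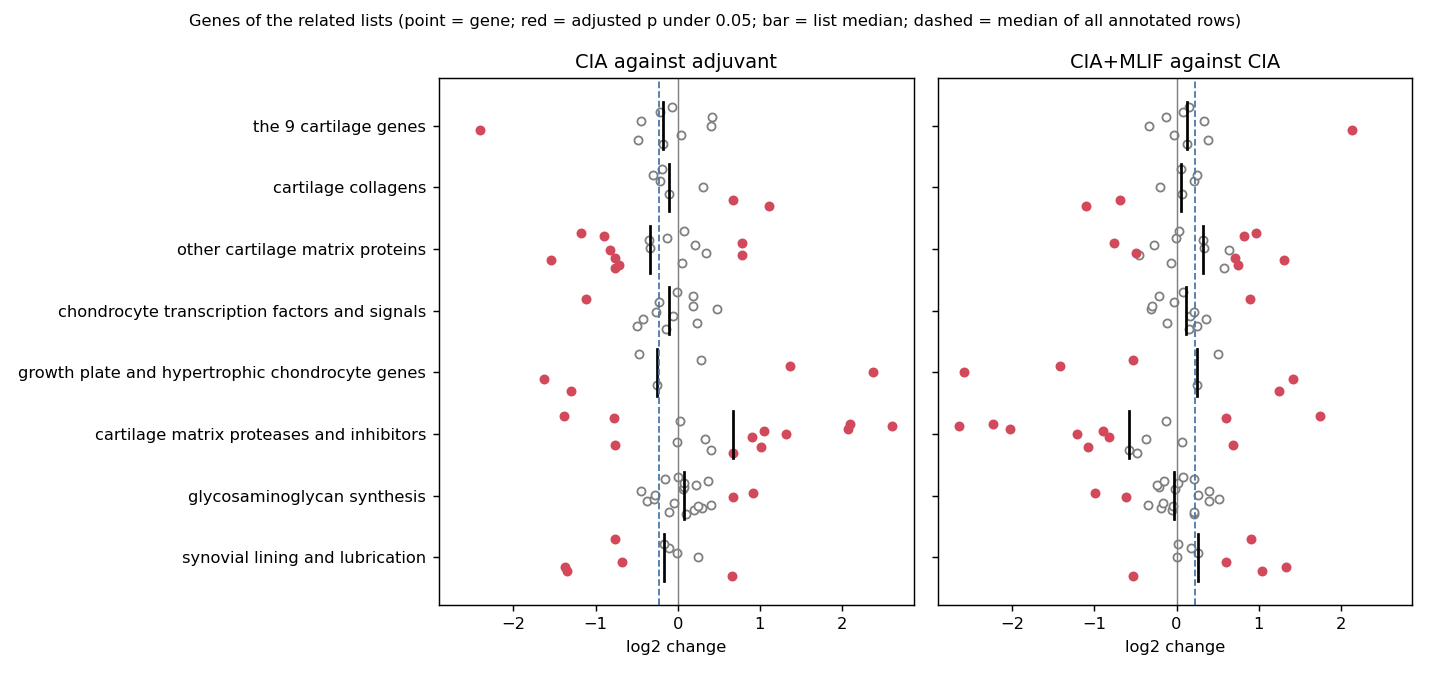
Log2 change (horizontal axes) of each gene of the 9 and of 7 related lists in CIA against adjuvant and in CIA+MLIF against CIA, red where the adjusted p was under 0.05, with a bar at each list's median and dashed lines at the median of all annotated probe sets (-0.23 and 0.22). The protease list has its bar at 0.68 and -0.58, and the set of 9 has Cytl1 as its only red point in each panel.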

How the data were processed

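RNA of mouse paws was measured on 8 arrays, 2 in each of 4 groups taken from the sample labels. The deposited table holds log2 signals, a unit read from the values. Any normalization the authors used for it is not given in the sources used here. Of 35557 rows, the 6618 before the first row with a gene symbol were taken as array controls, which is an inference. The 23410 rows with a symbol (21789 with 1 symbol, 1621 with several) were tested without a filter. One fit of 4 group means gave 6 comparisons (limma 3.58.1 in R 4.3.3, lmFit and eBayes, 4 residual and 5.27 prior degrees of freedom), 2-sided, with Benjamini-Hochberg adjustment over all 23410 rows. The script was tested on simulated data. Python 3.11.15 with Matplotlib 3.10.9 produced the figures.

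The 9 genes and the lists beside them were chosen with earlier results of these data known, so that counts over them are descriptions. All 9 genes are named. List genes could be named if they passed in CIA against adjuvant or CIA+MLIF against CIA, at most 6 per list and direction by size. For likeness the 3 genes with the highest r were named. Arrays carry no depth, and their number limits the precision. Alternatives were quantile normalization, centring, omission of the lowest tercile, a trended and robust variance, array weights, only the groups compared, a replicate block, averaged rows, the adjuvant+MLIF arrays averaged as 1, omission of each array and, added after the data were seen, all 28939 rows other than controls.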

Additional observations from a re-analysis of the deposited data

Results flagged for a closer look

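The collagen effect differed with and without MLIF, by limma's interaction test adjusted over all probe sets, for 21 of the 95 genes examined (the 9 cartilage genes and the related lists), 9 with a higher and 12 with a lower value in the presence of MLIF. Over all probe sets 6.86% passed. The value is the log2 collagen effect with MLIF minus that without it. Among the 9 cartilage genes it was 2.09 for Cytl1 (adjusted p = 0.00127), and none of the other 8 passed. It was also above 0 for Timp4 (1.45), Mef2c (1.37), Cd55 (1.26), Clic5 (1.23), Col10a1 (1.14), Clec3a (1.07), Sox6 (1.05) and Tspan15 (0.95). It was below 0 for the proteases Mmp9 (-2.97), Mmp13 (-2.91), Mmp3 (-2.13), Mmp14 (-1.39), Adamts4 (-1.16), Htra1 (-1.07) and Mmp2 (-0.96) and for the inhibitor Timp1 (-2.64). It was below 0 as well for Panx3 (-1.57), Col11a1 (-1.31), Matn4 (-0.89) and Col11a2 (-0.75). With each array left out in turn, the calls of Cytl1, Mef2c, Panx3, Mmp3, Mmp9, Mmp13, Mmp14 and Timp1 held in every case, and those of the 13 others were lost for at least 1 array (adjusted p up to 0.291). Groups of 2 arrays allow no test for single outlying arrays.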

How the results depend on the processing

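No result took the sign opposite to its value as deposited while either of the 2 was called. Signs could still differ between alternatives. Matn1 in CIA against adjuvant was at -1.16 without CIA replicate 2 and at 0.27 without CIA replicate 1. Of 957 values of single cartilage genes under the alternatives, 881 kept direction and call, 22 came to pass and 54 changed sign without passing. The calls of Cytl1 held in every setting (interaction 1.93 to 2.26). The number of the 9 genes passing in CIA against adjuvant, 1 as deposited, was 3 after quantile normalization and after centring, and 2 without the lowest tercile and with a trended and robust variance. In CIA+MLIF against CIA it was 3 after quantile normalization and 2 after centring, and for the interaction 2 in both. With 1 array left out the counts ran from 1 to 4, 1 to 4 and 1 to 2. The values above 1 came without CIA replicate 1 (3, 2 and 2) or CIA replicate 2 (4, 4 and 2). The cause of these shifts was not tested. Over all probe sets, leaving out CIA replicate 2 raised the calls in CIA against adjuvant from 4497 to 14473, array weights lowered them to 1621, and quantile normalization gave 7132. In CIA+MLIF against CIA the calls over all probe sets went from 3600 to 14151, 981 and 6196 under the same settings. With a replicate block, 1 gene passed in each of these comparisons and 0 in the other 3, with no change of call among the 9. Deviations of same-numbered arrays correlated at 0.411 between adjuvant and CIA+MLIF, and at -0.126 to 0.00593 between the other groups. These values do not settle whether the replicate numbers pair the arrays, and the labels name no pairing. Without the lowest tercile Matn1 has no value, and a fit of only the groups compared does not exist for the interaction. Signal over background limits Matn1, Matn3 and Hapln1.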
